A study of Homo sapiens with 6 samples.

Results

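The collagens, laminins and proteoglycan core proteins of Hep3B cells were compared between control cells and cells with a knockdown of DAGLA. The members were all protein-coding genes of GENCODE release 29 with the symbol of a collagen chain, a laminin chain, a syndecan or a glypican, together with the nidogens NID1 and NID2, the basement membrane proteoglycans HSPG2 (perlecan) and AGRN (agrin), and BGN, DCN, LUM and VCAN. These names took 74 genes, of which 68 had a row among the 29908 rows of the deposited table: 39 collagens, 11 laminins and 18 proteoglycan cores and nidogens. COL6A5, COL13A1, COL22A1, COL23A1, COL25A1 and LAMA1 were not analysed here. With a filter of a mean of at least 0.5 FPKM (reads scaled to exon length and to the depth of the library) over the libraries, 33 members were tested and 35 were not.

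Basement membranes are thin sheets under epithelia. They are built from laminin heterotrimers of an alpha, a beta and a gamma chain and from a network of type IV collagen, and nidogens, perlecan and agrin link or load these networks. Fibrillar collagens form the cables of connective tissue, and fibril-associated collagens and small leucine-rich proteoglycans such as biglycan and lumican coat them. Syndecans and glypicans hold heparan sulfate chains at the cell surface, where they bind growth factors. In liver, most interstitial collagen is made by stellate cells, and glypican-3 is known as an oncofetal protein of hepatocellular carcinoma.

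Hep3B is an established line of human hepatocellular carcinoma. Hep3B-Con cells were infected with a control lentivirus, named an empty vector in one place and shControl in another, whereas Hep3B-KD cells received a lentivirus whose short hairpin RNA targets DAGLA. This gene encodes diacylglycerol lipase alpha. Cells of both groups were infected at a multiplicity of infection of 5 and selected with puromycin, and the knockdown rested on 1 hairpin in 1 line. Total RNA of 3 replicates per group was sequenced. The reads assigned to the genes of the deposited table, recovered from its FPKM values, numbered 15861039 to 17572714 per library. The replicates were named biological, but no source said whether they were separate infections or cultures. The p-values therefore measure the spread between these libraries.

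The hairpin sequence is shown because bases 2 to 8 of its guide strand, the seed, can also pair with other transcripts. Among the transcripts of GENCODE release 29, the whole target was found only in DAGLA, in coding exon 18 of 20 of DAGLA-201 at chr11:61740504-61740522 (GRCh38, plus strand). The capitals mark the letters that pair with the seed.
DAGLA target: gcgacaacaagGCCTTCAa
DAGLA itself read 9.42, 9.404 and 9.02 FPKM in Hep3B-Con replicates 1 to 3 and 4.62, 4.46 and 4.78 in Hep3B-KD replicates 1 to 3. The groups did not overlap, and the log2 fold change was -0.99 ± 0.044 (SE). The exact two-sided permutation test gave p = 0.1, the smallest p that 3 against 3 libraries allow.

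Of the 33 tested members, 3 were higher by at least 2-fold in Hep3B-KD (GPC3, COL27A1 and COL14A1) and 2 were lower by at least 2-fold (BGN and COL1A1), all with an adjusted p under 0.05. Here and below, adjusted p-values are those of limma on log2(FPKM + 0.1), with Benjamini-Hochberg adjustment over the 14221 genes tested, and fold changes are Hep3B-KD over Hep3B-Con on that scale, which understates changes at low FPKM. Over all genes tested, 5.89% were higher and 2.94% lower by this rule, against 9.09% and 6.06% of the members. Adjusted p under 0.05 at any size was reached by 18 members that were higher and 7 that were lower, which are 54.5% and 21.2% of the members. The same held for 36.1% and 23.8% of all genes, so that most genes passed this threshold and a member that passed it was not unusual. The median log2 fold change was 0.25 over the members and 0.11 over all genes tested. When each library was centred on its median log ratio, which brought the median of all genes to 0.0059, the members with an adjusted p under 0.05 split into 15 higher and 10 lower, with a median of 0.14 over the 33. All genes split into 4064 higher and 4308 lower in that fit. For 27 members the 3 values of one group all lay on one side of the 3 values of the other, 19 of them higher and 8 lower in Hep3B-KD, which are 57.6% and 24.2% of the members. Of all genes tested, 40.7% and 26.3% did not overlap in these directions.

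**Figure D1:**
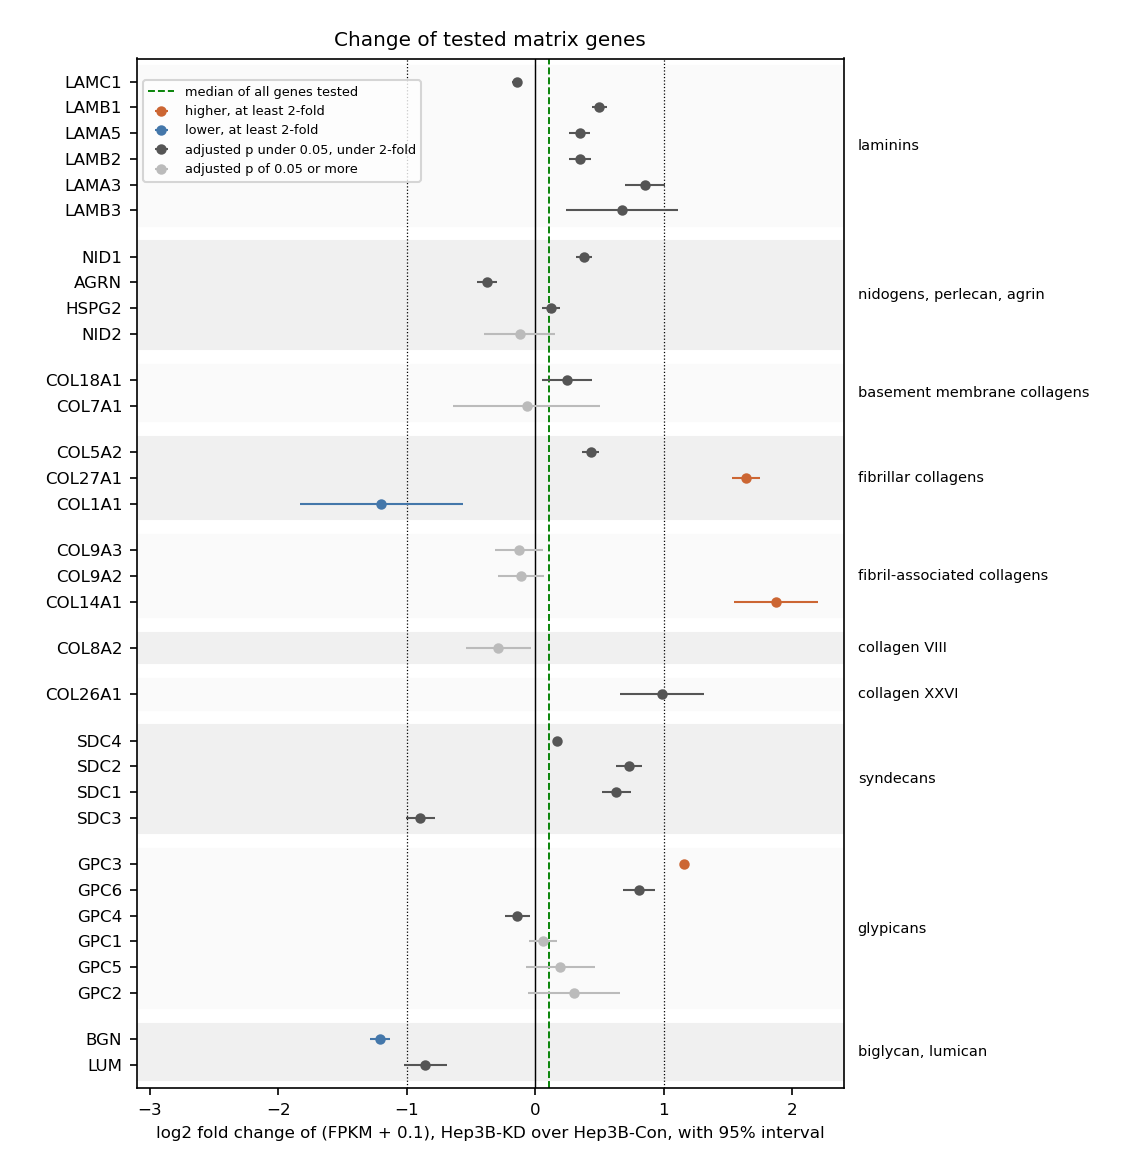
Log2 fold change (x axis, Hep3B-KD over Hep3B-Con, of FPKM + 0.1) of the tested members reported here (rows, by family), with limma's 95% interval as bars; dotted lines mark a 2-fold change and the dashed line the median of all genes tested, 0.11. GPC3, COL27A1 and COL14A1 lie to the right of the dotted lines, BGN and COL1A1 to the left, and most laminins between 0 and 1.

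Laminin chains were among the members with the highest levels. All 7 tested laminin chains passed adjusted p, 6 of them higher and LAMC1 lower, and none changed by as much as 2-fold. LAMC1, the gamma chain of most laminin trimers, read 122, 124 and 123 FPKM in Hep3B-Con and 112, 111 and 113 FPKM in Hep3B-KD. Its values were lower in all 3 Hep3B-KD libraries, by a small margin (log2 fold change -0.14 ± 0.016 SE, adjusted p = 0.000287). Under quantile normalisation this direction turned, with a log2 fold change of 0.046. LAMB1, the main beta chain here, read 32.5, 33.7 and 32.15 FPKM in Hep3B-Con and 46.6, 46.5 and 46.0 FPKM in Hep3B-KD. All Hep3B-KD values were above all control values (0.50 ± 0.024 SE, adjusted p = 7.72e-06). LAMA5, the alpha chain of the laminins found in most mature epithelia, rose from 32.7 ± 0.927 to 41.6 ± 1.30 FPKM (mean ± SD, n = 3), and so did LAMB2, from 16.5 ± 0.439 to 21.0 ± 0.639 FPKM (0.35 on the log2 scale for each).

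LAMA3 and LAMB3, chains of the epithelial laminin of hemidesmosomes, lay at much lower levels. LAMA3 went from 2.54 ± 0.145 to 4.68 ± 0.179 FPKM (log2 fold change 0.86 ± 0.064 SE, adjusted p = 4.42e-05), the largest fitted change of the 7 chains. LAMB3 went from 0.658 to 1.10 FPKM (adjusted p = 0.0163), but did not pass without Hep3B-KD replicate 1 (adjusted p = 0.0552) or with quantile normalisation (adjusted p = 0.108). LAMA4, a chain of vascular and mesenchymal laminins, was under the filter, with 18 to 39 reads in the control libraries and 4 to 8 in the Hep3B-KD libraries. It belongs to the genes that the study showed for the epithelial to mesenchymal transition on these samples, so its direction is not independent of that choice.

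Summed over chains, the gamma chains reached 124 ± 0.977 FPKM in Hep3B-Con and 113 ± 1.15 in Hep3B-KD, the beta chains 49.9 ± 1.32 and 68.5 ± 0.791, and the alpha chains 35.4 ± 0.814 and 46.4 ± 1.19 (SD, n = 3). The leading chain of each class was the same in both groups. LAMA5 supplied 92.4% ± 0.498 of alpha chain FPKM in the controls and 89.8% ± 0.581 in the knockdown, LAMB1 65.7% ± 0.203 and 67.7% ± 0.651 of beta chain FPKM, and LAMC1 99.1% ± 0.102 and 98.6% ± 0.239 of gamma chain FPKM. Levels here are scaled to all annotated exons of a gene (14291 bases for LAMA5 and 8406 for LAMC1). This length can exceed that of the expressed transcript, by an amount that may differ between chains. On that scale the gamma chains exceeded the alpha chains in all libraries.

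**Figure D2:**
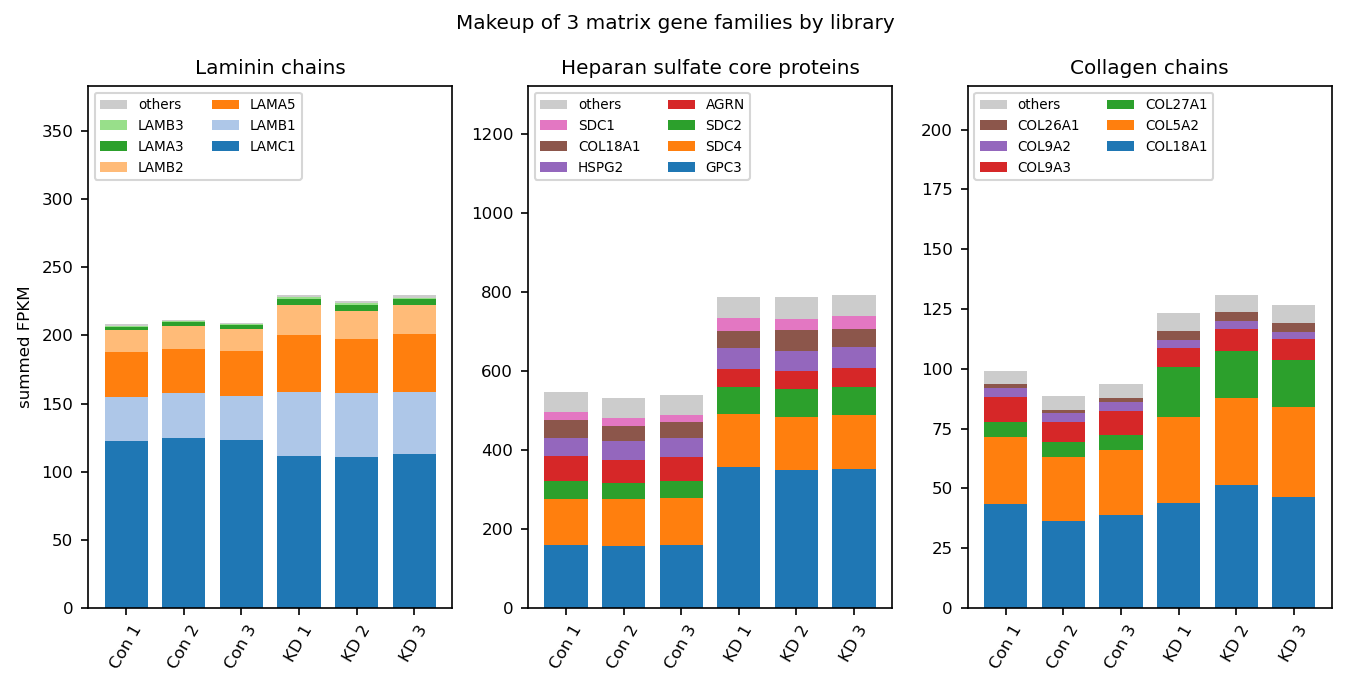
Summed FPKM (y axis) in each of the 6 libraries (x axis) for laminin chains, core proteins that carry heparan sulfate and collagen chains, with the leading genes of each family in colour and the remaining ones in grey. The heparan sulfate core proteins rise from 531 to 547 FPKM in Hep3B-Con to 787 to 793 FPKM in Hep3B-KD, mostly through GPC3.

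Among the basement membrane linkers, NID1 and AGRN changed in opposite directions. NID1, a nidogen that joins laminin to type IV collagen, read 96.1, 93.0 and 95.1 FPKM in Hep3B-Con and 125.5, 119.6 and 125 FPKM in Hep3B-KD. The groups did not overlap (log2 fold change 0.38 ± 0.025 SE, adjusted p = 2.51e-05). AGRN, a large heparan sulfate proteoglycan, read 62.0, 59.2 and 60.7 FPKM in Hep3B-Con and 45.7, 45.6 and 48.6 FPKM in Hep3B-KD, lower in all 3 knockdown libraries (-0.38 ± 0.033 SE, adjusted p = 8.54e-05). HSPG2, the perlecan core protein, read 47.9, 47.9 and 49.0 FPKM in Hep3B-Con and 53.3, 50.6 and 53.9 FPKM in Hep3B-KD. These groups did not overlap either, but the log2 fold change of 0.12 ± 0.029 (SE, adjusted p = 0.0101) was close to the median of all genes, and it no longer passed when libraries were centred on that median (0.019, adjusted p = 0.612). NID2 read 1.31 and 1.19 FPKM on average and did not pass (adjusted p = 0.405, 95% interval of the log2 fold change -0.39 to 0.16). Of its exon length, 30.0% is shared with RTRAF on the opposite strand (9.002 and 9.24 FPKM), and whether counting used strand was not given in the sources used here.

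The type IV collagens, the network-forming chains of basement membranes, were at low levels. All 6 of them, COL4A1 to COL4A6, were under the filter, and their FPKM summed to between 0.537 and 0.693 per library, while LAMC1 was over 100 FPKM in each library. COL4A1 and COL4A2, which are transcribed head to head from one promoter region, had 54 to 73 and 7 to 14 reads in Hep3B-Con libraries and 34 to 44 and 17 to 25 reads in Hep3B-KD libraries. The groups did not overlap for either, with COL4A1 lower and COL4A2 higher in Hep3B-KD. With no filter on low values neither passed adjusted p (0.259 for COL4A1 and 0.25 for COL4A2). The gene models of COL4A1 and COL4A2 overlap on opposite strands, from chr13:110305812 to 110307233. How many exon bases they share was not checked.

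COL18A1, a basement membrane collagen that carries heparan sulfate and releases endostatin, had the highest level of all collagens. It read 43.5, 36.6 and 38.95 FPKM in Hep3B-Con and 43.7, 51.4 and 46.2 FPKM in Hep3B-KD. The lowest knockdown value was just above the highest control value, and the spread within groups was large (log2 fold change 0.25 ± 0.080 SE, adjusted p = 0.0342). It did not pass without Hep3B-Con replicate 2 or 3 or Hep3B-KD replicate 2 or 3 (adjusted p between 0.0702 and 0.0993), nor with median centring (0.14, adjusted p = 0.169), no filter (adjusted p = 0.0737) or no trend (adjusted p = 0.0677). Opposite strand exons of SLC19A1, which read 11.7 FPKM in Hep3B-Con and 8.004 in Hep3B-KD, share 16.4% of its exon length. COL7A1, the anchoring fibril collagen, read 0.524 and 0.501 FPKM (adjusted p = 0.833, 95% interval -0.64 to 0.51).

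Among the 3 tested fibrillar collagens, COL27A1 rose and COL1A1 fell by at least 2-fold. COL27A1, a fibrillar collagen best known from cartilage, read 6.55, 6.04 and 6.36 FPKM in Hep3B-Con and 20.8, 19.3 and 19.6 FPKM in Hep3B-KD. All 3 knockdown values were far above the controls, and their mean was 3.15 times the control mean (log2 fold change 1.64 ± 0.046 SE, adjusted p = 8.94e-07), on 1469 to 1609 reads per control library and 4336 to 4618 per knockdown library. COL1A1, the main chain of type I collagen, read 0.678, 0.732 and 0.826 FPKM in Hep3B-Con and 0.308, 0.209 and 0.295 FPKM in Hep3B-KD. Its values were lower in all 3 knockdown libraries, at low counts of 117 to 135 reads against 33 to 48 (-1.20 ± 0.26 SE, adjusted p = 0.0072). This result depended on low values, since COL1A1 was not tested with a filter of a mean of 1 FPKM and fell under 2-fold with a pseudocount of 1. COL1A2, its partner chain, was under the filter, with 23 to 29 reads in control libraries and 9 to 19 in knockdown libraries.

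COL27A1 lies at chr9:114155560-114312511 (GRCh38, plus strand, GENCODE release 29). Its promoter window is shown because it is the collagen with the largest change at a level above 5 FPKM in the knockdown. The window is taken from RefSeq on GRCh38.p14, from 250 bases before to 50 bases after the start, at chr9:114155287-114155586 (plus strand). Capitals mark the GC box GGGCGG on either strand.
COL27A1 promoter: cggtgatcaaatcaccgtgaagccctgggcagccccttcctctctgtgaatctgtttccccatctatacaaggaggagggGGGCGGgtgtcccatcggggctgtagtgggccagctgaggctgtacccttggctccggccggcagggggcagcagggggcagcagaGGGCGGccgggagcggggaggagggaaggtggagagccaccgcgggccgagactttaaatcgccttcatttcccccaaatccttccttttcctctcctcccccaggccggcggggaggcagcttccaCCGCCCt
The bases were 65.7% G or C. The element bound by TEAD factors, GGAATG, was not found in this window on either strand. The same held for the TATA box, spelled TATAAA. No AP-1 element, searched as TGACTCA, was found either.

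COL5A2, a chain of type V collagen, which nucleates type I fibrils, rose from 27.2 ± 0.523 to 36.8 ± 0.875 FPKM (SD, n = 3, log2 fold change 0.43 ± 0.028 SE, adjusted p = 2.24e-05). The chains it usually assembles with were at or under 3 reads in every library: COL5A1 had at most 2 reads in a control library and 0 in the knockdown libraries, and COL5A3 at most 2. Chains of type IX collagen showed the same kind of gap. COL9A3 (9.54 and 8.73 FPKM) and COL9A2 (3.66 and 3.39 FPKM) were detected in all libraries and did not pass (adjusted p = 0.211 and 0.242, 95% intervals -0.31 to 0.06 and -0.29 to 0.07), whereas COL9A1 had at most 1 read in a library. With median centring both passed as lower (adjusted p = 0.0424 and 0.0431).

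COL14A1, a fibril-associated collagen of dense connective tissue, read 0.428, 0.432 and 0.507 FPKM in Hep3B-Con and 1.82, 2.02 and 1.98 FPKM in Hep3B-KD. The groups were far apart relative to their spread (log2 fold change 1.88 ± 0.14 SE, adjusted p = 3.95e-05), with 65 to 73 reads per control library and 249 to 284 per knockdown library. Its level was 4.25 times that of the controls, the largest ratio of the tested members. COL26A1, a secreted collagen, went from 1.75 ± 0.329 to 3.51 ± 0.0542 FPKM (log2 fold change 0.99 ± 0.14 SE, adjusted p = 0.00083), just short of 2-fold on the fitted scale. COL8A2, a short chain collagen, read 1.89 and 1.54 FPKM and was lower in all 3 knockdown libraries, but did not pass (adjusted p = 0.0542, 95% interval -0.54 to -0.03). It passed with median centring, quantile normalisation, no trend, voom or without Hep3B-KD replicate 3 (adjusted p between 0.00463 and 0.0432). Summed FPKM of all collagens was 93.8 ± 5.32 in Hep3B-Con and 127 ± 3.89 in Hep3B-KD. COL27A1 made up 6.73% ± 0.122 of that sum in the controls and 15.7% ± 1.09 in the knockdown.

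**Figure D3:**
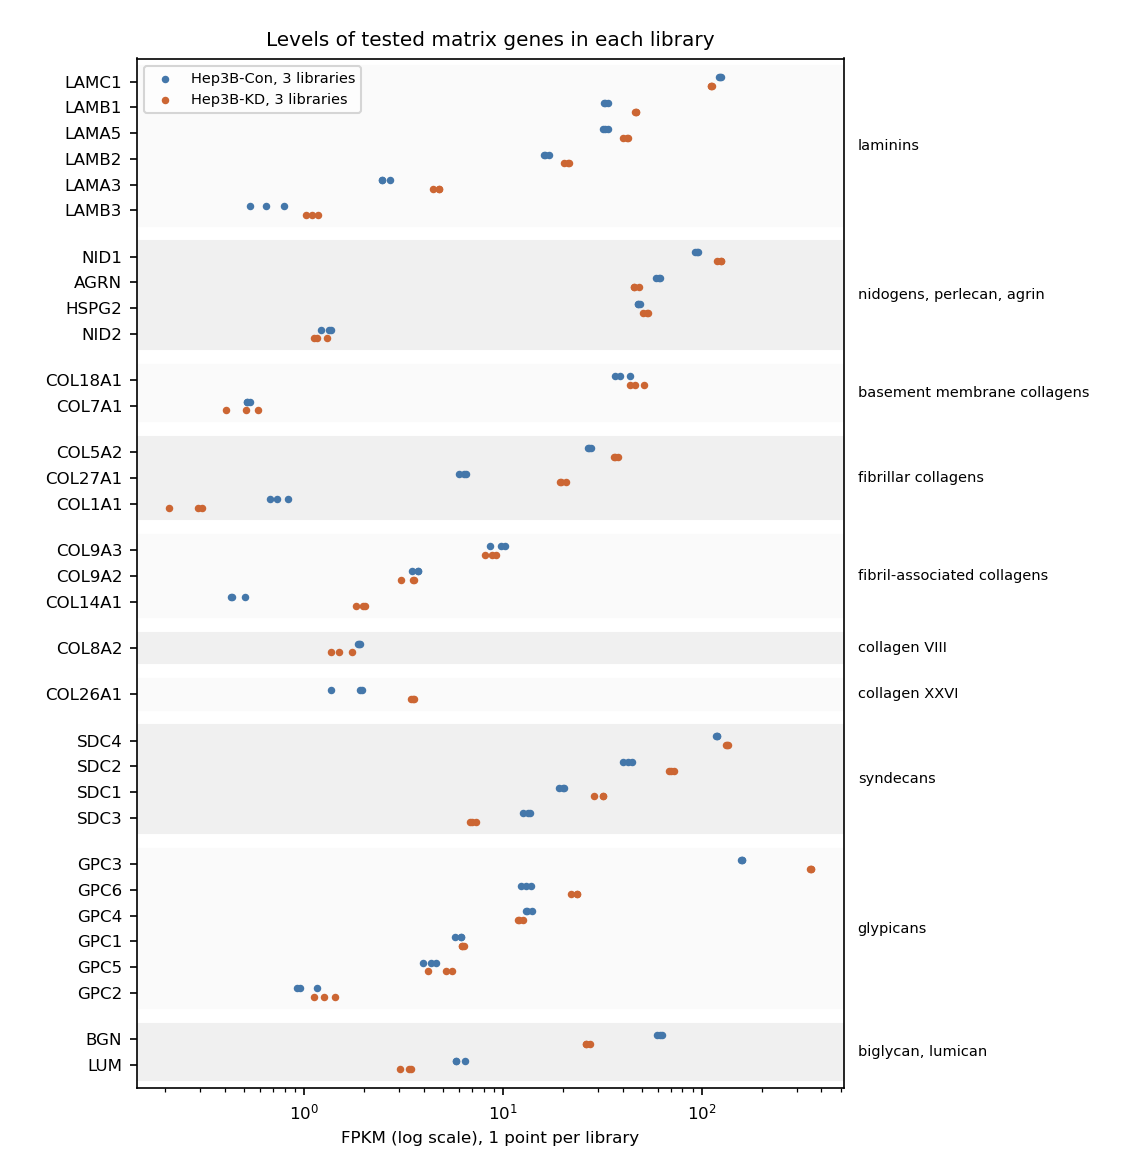
FPKM on a log axis (x) of the tested members reported here (rows, by family), with 1 point for each of the 3 Hep3B-Con and 3 Hep3B-KD libraries. Levels span from 0.209 FPKM (COL1A1, knockdown) to 356 FPKM (GPC3, knockdown), and replicates of a group lie close together compared with the distances between genes.

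The 6 glypicans, heparan sulfate proteoglycans held in the membrane by a lipid anchor, were all tested. GPC3, which lies at chrX:133535745-133985895 (GRCh38, minus strand), had the highest level of all members. It read 159, 157 and 159 FPKM in Hep3B-Con and 356, 349.9 and 353 FPKM in Hep3B-KD. Each group was tight and the knockdown level was 2.23 times that of the controls (158 ± 0.718 and 353 ± 3.21 FPKM, SD, n = 3, log2 fold change 1.16 ± 0.014 SE, adjusted p = 5.05e-08). GPC6 also rose, from 13.1 ± 0.762 to 23.0 ± 0.905 FPKM (0.81 ± 0.051 SE, adjusted p = 2.2e-05). GPC4, the next gene to GPC3 among the members on chromosome X, went the other way by a small amount, from 13.4 to 12.2 FPKM (-0.14 ± 0.040 SE, adjusted p = 0.021), and did not pass without Hep3B-Con replicate 1 or Hep3B-KD replicate 2 or 3 (adjusted p between 0.0596 and 0.0669). GPC1, GPC2 and GPC5 did not pass, with 95% intervals of the log2 fold change of -0.05 to 0.17, -0.05 to 0.66 and -0.07 to 0.46. Within the summed glypican FPKM, which was 196 ± 0.582 in Hep3B-Con and 401 ± 2.84 in Hep3B-KD, GPC3 made up 80.7% ± 0.34 and 88.1% ± 0.3.

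The 4 syndecans, transmembrane heparan sulfate proteoglycans, all passed adjusted p. SDC4, a syndecan of focal adhesions, read 119, 119 and 119.6 FPKM in Hep3B-Con and 134, 133 and 136 FPKM in Hep3B-KD. All knockdown values were higher, by a small amount (log2 fold change 0.17 ± 0.015 SE, adjusted p = 9.55e-05). SDC2 read 44.4, 40.0 and 42.8 FPKM in Hep3B-Con and 68.4, 72.2 and 70.0 FPKM in Hep3B-KD, again with no overlap (0.73 ± 0.042 SE, adjusted p = 1.52e-05). SDC1, the main syndecan of epithelia and hepatocytes, rose from 19.8 ± 0.538 to 30.7 ± 1.74 FPKM (0.63 ± 0.046 SE). SDC3, best known from neural tissue, fell from 13.2 ± 0.56 to 7.06 ± 0.264 FPKM (-0.89 ± 0.047 SE, adjusted p = 9.79e-06). SDC4 made up 61.2% ± 0.853 of syndecan FPKM in the controls and 55.4% ± 0.222 in the knockdown, and SDC2 21.8% ± 0.899 and 28.98% ± 0.871.

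Counting syndecans, glypicans, HSPG2, AGRN and COL18A1 together, the core proteins that carry heparan sulfate summed to 539 ± 7.71 FPKM in Hep3B-Con and 789 ± 2.97 in Hep3B-KD (SD, n = 3). GPC3 made up 29.4% ± 0.317 of this sum in the controls and 44.7% ± 0.434 in the knockdown, while AGRN went from 11.2% ± 0.103 to 5.91% ± 0.192.

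BGN and LUM, the tested small leucine-rich proteoglycans, were both lower. BGN encodes biglycan, a chondroitin and dermatan sulfate proteoglycan that binds collagen fibrils, and lies at chrX:153494939-153509554 (GRCh38, plus strand). It read 59.7, 61.4 and 63.2 FPKM in Hep3B-Con and 27.6, 26.1 and 26.1 FPKM in Hep3B-KD. The control values were all more than 2-fold above the knockdown values (log2 fold change -1.21 ± 0.033 SE, adjusted p = 8.29e-07). BGN is in a gene list that the study drew in part from these samples, so its direction here is not independent evidence for that list. LUM, which encodes lumican, a keratan sulfate proteoglycan, fell from 6.03 ± 0.364 to 3.29 ± 0.218 FPKM (-0.86 ± 0.070 SE, adjusted p = 6.88e-05). DCN (decorin) and VCAN (versican) had at most 2 reads in every library.

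The promoter window of BGN is shown as that of the member with the largest fall among those above 1 FPKM. It is from RefSeq on GRCh38.p14, at chrX:153494730-153495029 (plus strand), with GC boxes in capitals.
BGN promoter: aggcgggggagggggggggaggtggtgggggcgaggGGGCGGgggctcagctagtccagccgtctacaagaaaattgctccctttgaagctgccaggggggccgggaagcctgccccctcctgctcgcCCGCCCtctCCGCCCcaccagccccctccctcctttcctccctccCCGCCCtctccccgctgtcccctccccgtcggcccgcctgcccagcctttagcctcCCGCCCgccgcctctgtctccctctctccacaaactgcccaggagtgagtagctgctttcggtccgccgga
Its bases were 71.7% G or C, and it held no TEAD element, TATA box or AP-1 element either. Of the 33 tested members, 24 had a promoter window in the RefSeq table. A GC box was found in 22 of these 24, in 71.0% of the windows of all genes tested that had one, and in 44.9% of the 34943 windows of the whole table. A TEAD element was in 0 of the 24 member windows, 10.8% of those of tested genes and 14.0% of all. A TATA box was in 3 of the 24 (COL7A1, GPC5 and GPC6) against 5.27% and 11.6%, and an AP-1 element in 1 (LAMA3) against 2.87% and 4.96%. Both strands were searched and the motifs do not overlap one another. These are matches of letters in a window and say nothing of binding.

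The seed match of the hairpin, the 7 letters in capitals above, was looked for in the longest 3′ UTR of each gene. It occurred in 2 of the 33 tested members, LAMC1 and SDC1, and in 1628 of 11189 genes tested that had a 3′ UTR of at least 50 bases (14.6%). The 2 sites, each on the sense strand in the last exon, are shown with the match in capitals (GRCh38).
LAMC1 site, chr1:183145453-183145459, plus strand: cttttatatgtGCCTTCActttagctgtt
SDC1 site, chr2:20201819-20201825, minus strand: gctgggactcaGCCTTCAgacagagagga
LAMC1 was lower (log2 fold change -0.14) and SDC1 higher (0.63) in Hep3B-KD. Whether pairing with the hairpin took part in either was not tested. None of the 5 members changed by at least 2-fold held a match.

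Genes listed as ones that fold, process, modify, cut or bind these molecules were followed in 8 lists of 136 genes. Of these, 116 had a row and 81 were tested. By the 2-fold rule 2 were higher, which is 2.47% of those tested against 5.89% of all genes, and 7 were lower, which is 8.64% against 2.94%. At any size, 24 were higher (29.6% against 36.1%) and 31 lower (38.3% against 23.8%) with an adjusted p under 0.05. The median log2 fold change was -0.04, against 0.11 over all genes. The lists were chosen with earlier results of these data known, so these shares are not a test of the lists.

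Of 18 tested genes of collagen folding and modification, 4 were higher and 7 lower, and P4HA1, a prolyl 4-hydroxylase subunit that stabilises the collagen helix, passed the 2-fold rule. It read 3.29, 3.42 and 3.83 FPKM in Hep3B-Con and 7.52, 7.21 and 6.84 FPKM in Hep3B-KD (log2 fold change 1.01, adjusted p = 3.15e-05), and the groups did not overlap. It fell short of 2-fold with median centring (0.91), with quantile normalisation (0.88), with a pseudocount of 1, and without Hep3B-Con replicate 1 or 2 or Hep3B-KD replicate 1 (0.97, 0.997 and 0.98). Of 5 tested genes of processing and crosslinking, 2 were higher and 2 lower. LOX, the lysyl oxidase that starts collagen crosslinks, fell from 7.32, 6.99 and 7.36 FPKM to 2.33, 2.57 and 2.63 FPKM (-1.49, adjusted p = 3.83e-06).

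None of the 13 tested enzymes of heparan sulfate chains changed by 2-fold, with 6 higher and 5 lower at any size and a median log2 fold change of 0.17. The 6 tested genes of the linkage region, which joins all these chains to their core proteins, had 4 higher and 0 lower, with a median of 0.35. Of the 14 tested enzymes of chondroitin and dermatan sulfate, 1 was higher and 3 lower.

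The 8 tested proteases and inhibitors all passed adjusted p, 3 higher and 5 lower. Among them, the inhibitors TIMP1 (3.97 ± 0.209 and 1.94 ± 0.578 FPKM) and TIMP3 (1.57 ± 0.072 and 0.685 ± 0.0865 FPKM) fell by at least 2-fold (log2 fold changes -1.03 and -1.10, adjusted p = 0.0031 and 0.000515). With a pseudocount of 1 both fell short of 2-fold, as did TIMP1 without Hep3B-Con replicate 1, Hep3B-KD replicate 1 or Hep3B-KD replicate 3 (-0.99, -0.86 and -0.98). Of 9 tested receptors for collagen and laminin, BCAM, a receptor for laminins with the LAMA5 chain, read 34.6, 32.9 and 33.8 FPKM in Hep3B-Con and 87.0, 82.5 and 86.9 FPKM in Hep3B-KD (1.34, adjusted p = 4.09e-07). ITGB1, the beta subunit of most collagen and laminin integrins, fell from 157, 162 and 163 FPKM to 58.1, 56.0 and 58.0 FPKM (-1.48, adjusted p = 1.25e-07). BCAM and ITGB1 moved in opposite directions, with no overlap between groups for either. Of the 9 receptors, 3 were higher and 3 lower at any size, with a median log2 fold change of -0.03. A list named for ligands that bind heparan sulfate had 8 tested genes, and whether each of them binds it was not checked. At any size, 1 of the 8 was higher and 6 were lower with an adjusted p under 0.05. FGF21, FGF19 and FGF2 fell by at least 2-fold (-1.62, -1.16 and -1.004), at mean control levels of 2.58, 7.79 and 0.92 FPKM. FGF2 fell short of 2-fold with equal FPKM sums (-0.98) and without Hep3B-Con replicate 2 or Hep3B-KD replicate 1 (-0.89 and -0.86), and FGF2 and FGF19 did with a pseudocount of 1. NUDT6 (0.243 and 0.413 FPKM) shares 11.9% of the exon length of FGF2 on the opposite strand. Of the 9 genes of these lists changed by at least 2-fold, the 3′ UTRs of ITGB1 and FGF2 held the seed match. This is 22.2%, against 14.6% of all genes tested that had a 3′ UTR. The part of the seed match in these changes was not tested.

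**Figure D4:**
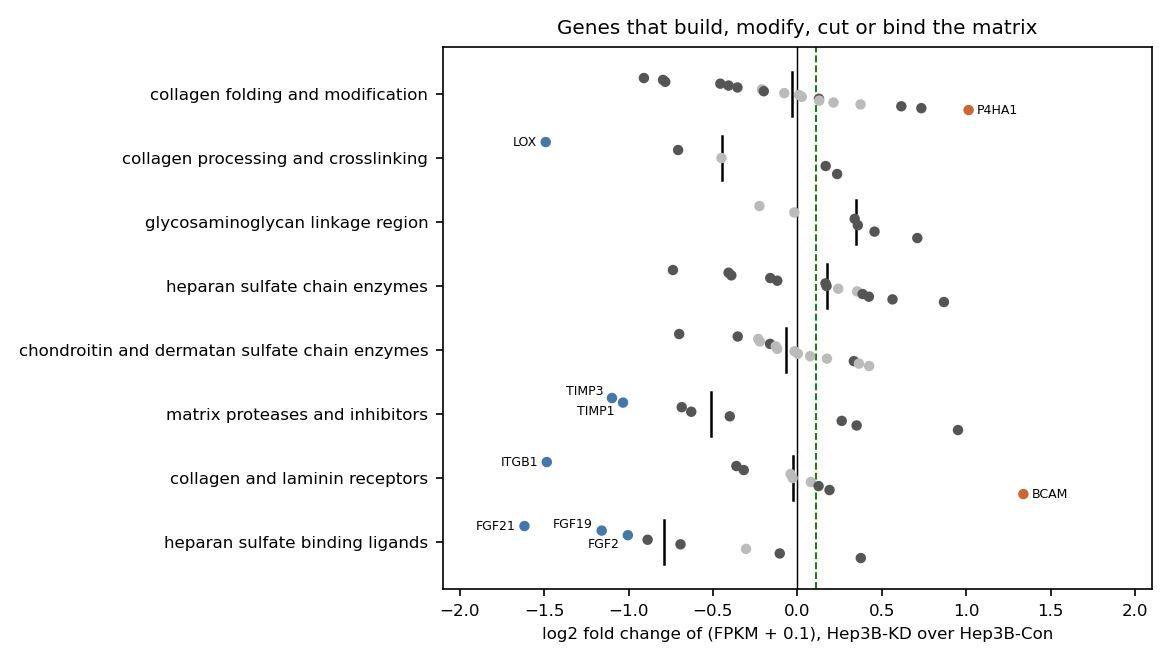
Log2 fold change (x axis, Hep3B-KD over Hep3B-Con, of FPKM + 0.1) of the 81 tested genes of 8 lists (rows), with 1 point per gene, orange and blue for genes higher or lower by at least 2-fold, dark grey for other genes with an adjusted p under 0.05, light grey for the rest, black ticks for list medians and a dashed line at the median of all genes tested. The named genes P4HA1 and BCAM lie to the right and the 7 others to the left, and linkage region genes have the highest median, 0.35.

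Of the 35 members under the filter, 14 had 3 or fewer reads in every library, which is the floor used here, and 21 had more in at least 1 library. This floor is a fixed cutoff on reads and takes no account of variation between replicates. COL3A1, the chain of the reticular fibres of liver, had at most 2 reads in a library, and COL6A3 at most 1. The highest mean among these 35 members was 0.409 FPKM, and the lowest among tested members 0.508 FPKM.

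**Figure D5:**
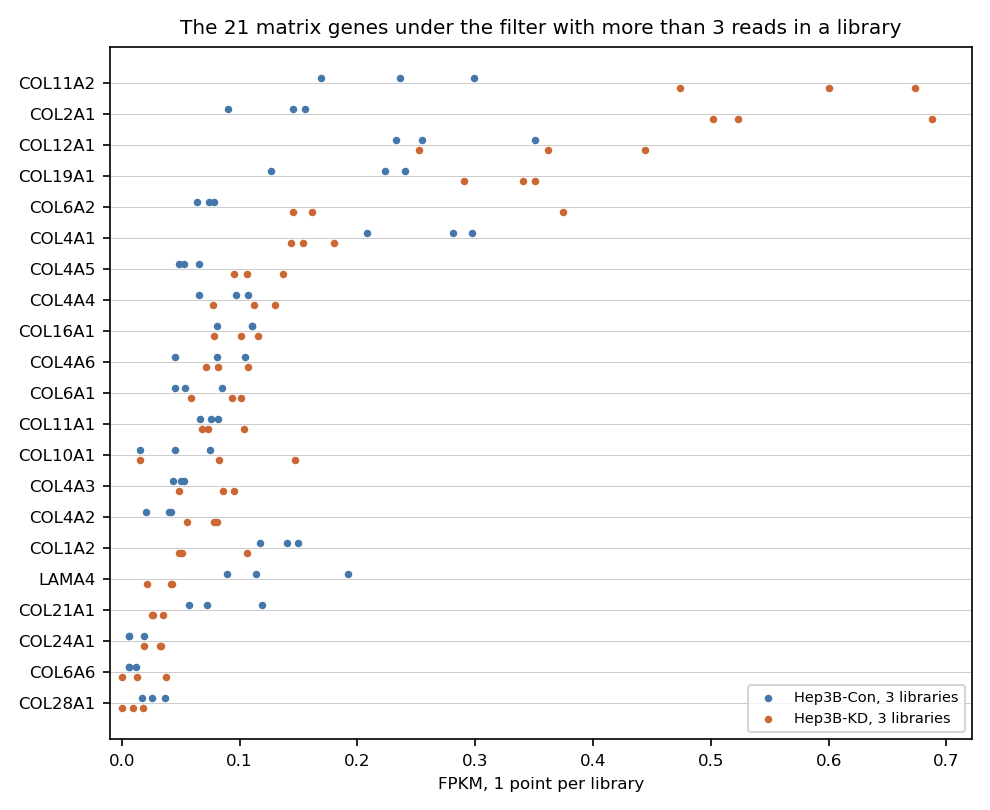
FPKM (x axis) of the 21 members under the filter that had more than 3 reads in at least 1 library (rows), with 1 point for each of the 3 Hep3B-Con and 3 Hep3B-KD libraries. COL11A2 and COL2A1 have the highest knockdown levels, 0.583 and 0.571 FPKM on average, above all their control values.

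Markers of the labelled cell type were at high levels. The FPKM of 11 hepatocyte genes such as ALB and AFP summed to between 2657 and 2707 in Hep3B-Con and 4139 and 4157 in Hep3B-KD. Most of this sum was ALB, with means of 2042 and 3315 FPKM. All 11 passed adjusted p, 7 higher and 4 lower. The lower ones were FGA, FGB, FGG and HNF4A (log2 fold changes -1.23, -0.96, -0.44 and -0.35). Markers of stellate cells and fibroblasts, the usual source of fibrillar collagen in liver, summed to 50.8 to 52.2 FPKM in Hep3B-Con and 77.4 to 79.0 in Hep3B-KD over 8 genes with a row, nearly all of it RELN (45.9 and 73.6 FPKM). PDGFRA (2.65 and 1.83 FPKM, adjusted p = 0.00723) and PDGFRB (2.67 and 2.11 FPKM, adjusted p = 0.00447) fell, so that 1 of the 3 tested genes of the list was higher and 2 were lower, and DES, THY1 and FAP were at or under 0.0406 FPKM in each library. The 7 endothelial markers summed to 0.23 to 0.457 FPKM and the 6 leukocyte markers to 2.92 to 4.91 FPKM over all libraries. Fewer cells of a type and less RNA per cell cannot be told apart in bulk libraries. The part of these changes of hepatocyte markers, which went in both directions, in the matrix results was not tested.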

How the data were processed

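RNA sequencing of 3 Hep3B-Con and 3 Hep3B-KD libraries was used, grouped by the hairpin named in the sample labels. The authors deposited FPKM values for 29908 Ensembl genes, 1 column per library, with 0 other columns of values. The processing notes of the submitters name GRCh37, Bowtie2 2.0.6 and TopHat2 2.0.12; the counter, the annotation and the use of strand were not given in the sources used here. All identifiers were found in GENCODE release 29 (GRCh38), whose coordinates are printed. With its exon lengths, 100% of the deposited FPKM values came out as whole reads (tolerance 0.01). These summed to 15861039 to 17572714 reads per library over the rows of the table, which need not be all reads sequenced.

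Genes averaging 0.5 FPKM or more were tested as log2(FPKM + 0.1) with limma 3.58.1 (lmFit, eBayes with trend) in R 4.3.3, with Benjamini-Hochberg adjustment over 14221 genes. A call needed a fold change of at least 2, as in the study, and an adjusted p under 0.05. Replicates were separate libraries by a chi-square of 1.8 to 3.3 per gene. Same-numbered replicates did not deviate together (correlations -0.066 to -0.001), so no replicate block was used.

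The members and gene lists were chosen with earlier results of these data known. Values in every library are given for members called and for the 10 members of highest mean FPKM, and other genes are named if called. Alternatives were 2 other filters, 2 other pseudocounts, 3 other scalings, no trend, a replicate block, voom on the recovered reads, and each library left out. Promoters came from RefSeq and 3′ UTRs from GENCODE release 29. Counts and sums cover all members, but 1 tested laminin chain is not reported here by name. No promoter was printed for GPC3, COL14A1 or COL1A1. Tables were handled in Python 3.11.15 with pandas 2.3.3 and drawn with matplotlib 3.10.9.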

Additional observations from a re-analysis of the deposited data

Results flagged for a closer look

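Of the collagens left out of the tests by the filter on low values, 6 had a level above 3 reads in every Hep3B-KD library and above all 3 Hep3B-Con libraries, which is 17.1% of the 35 members under the filter against 7.04% of all genes under it. Their mean Hep3B-KD levels were 0.583 FPKM for COL11A2, 0.571 for COL2A1, 0.327 for COL19A1, 0.227 for COL6A2, 0.113 for COL4A5 and 0.0714 for COL4A2, against 0.235, 0.13, 0.197, 0.072, 0.0557 and 0.0343 FPKM in Hep3B-Con. COL2A1 and COL11A2 encode fibrillar collagens best known from cartilage. COL2A1 had 10 to 18 reads per control library and 53 to 76 per knockdown library, and COL11A2 19 to 35 and 53 to 72. With no filter on low values, COL2A1 and COL11A2 passed adjusted p (0.00647 and 0.0332). COL6A2, COL4A5, COL19A1 and COL4A2 did not (0.12, 0.195, 0.236 and 0.25). Since the genes were picked for this pattern, these p-values are not a test of it. COL6A2 ranged from 13 to 32 reads within the Hep3B-KD group. All genes under the filter were not limited by gene type or exon length. A longer gene collects more reads at the same FPKM, so the shares above and below are not matched for read count. In the other direction, COL4A1, COL1A2, COL21A1 and LAMA4 had more than 3 reads in every Hep3B-Con library and lay above all 3 Hep3B-KD libraries (11.4% of these members against 2.06% of all genes under the filter), with 54 to 73 against 34 to 44, 23 to 29 against 9 to 19, 7 to 14 against 3 to 4 and 18 to 39 against 4 to 8 reads.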

How the results depend on the processing

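Of 525 member values under 16 alternatives, 489 kept their direction and their side of adjusted p = 0.05, 22 no longer passed that threshold, 10 newly passed it (COL8A2 under 5 alternatives, COL9A2 under 2, and COL9A3, NID2 and GPC5 under 1 each) and 4 changed sign. The sign changes were those of GPC1 (-0.0428 with median centring and -0.0519 with quantile normalisation), LAMC1 (0.0459 with quantile normalisation) and COL7A1 (0.0556 without Hep3B-KD replicate 2, against -0.166 without Hep3B-KD replicate 1). Members higher by the 2-fold rule numbered 5 with no filter (COL2A1 and COL11A2 added, since more genes were tested). Members lower numbered 1 with a mean of at least 1 FPKM or a pseudocount of 1 (COL1A1 lost). Pathway genes higher numbered 1 with a pseudocount of 1, median centring or quantile normalisation (P4HA1 lost), and pathway genes lower 3 with a pseudocount of 1 (FGF2, FGF19, TIMP1 and TIMP3 lost). With 1 library left out, pathway genes higher ranged from 1 (without Hep3B-Con replicate 1 or Hep3B-KD replicate 1) to 2, and pathway genes lower from 5 to 7. Where no value shows it, the cause was not tested. COL26A1 passed 2-fold with a pseudocount of 0.01, equal FPKM sums, voom, or without Hep3B-Con replicate 1 or 3, and LUM with quantile normalisation. With the replicate number as a block, 23 members passed adjusted p instead of 25 (COL18A1, at 0.0883, was among those lost) and the same 5 members passed the 2-fold rule. The numbers share no known origin. Low read counts limit many members under about 0.5 FPKM. COL4A1, with an exon length of 14738 bases, was under the filter with 54 to 73 reads per Hep3B-Con library.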
